A study of Mus musculus with 7 samples.

Results

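The synaptic vesicle and release machinery was represented by 53 genes out of 22248 in the gene table, which code for vesicle membrane proteins, SNAREs, calcium sensors, active zone scaffolds, Rab3 proteins, endocytic proteins and vesicular glutamate transporters. Members were all the listed symbols whose Ensembl gene identifier, with its version removed, was found in the table, and the rule uses no measured value. Messenger RNA was sequenced from hippocampal synaptoneurosomes, a brain fraction enriched in sealed presynaptic terminals with pieces of the postsynaptic side, of wild-type female C57Bl/6J mice. One group of 4 libraries (replicates B, D, E and F) came from mice given AM6545 sub-chronically, and the other of 3 libraries (B, D and E) from mice given vehicle. AM6545 blocks the cannabinoid receptor CB1 and is known as a peripherally restricted compound. Dose, duration, age and how many mice a library stands for are not given in the sources used here. Nothing says whether libraries came from separate animals or pools, so p-values measure only the spread between these samples.

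Synaptic vesicles are filled with transmitter by transporters in their membrane, tethered at the active zone by large scaffold proteins, primed, and fused with the plasma membrane when calcium binds a synaptotagmin. Fusion is driven by the SNARE proteins synaptobrevin, syntaxin and SNAP-25, which the ATPase NSF and its SNAP adaptors take apart again before the membrane is recovered by dynamin-dependent endocytosis. In the hippocampus this machinery works at fast synapses, both glutamatergic and inhibitory, and CB1 on the axon terminal is known to reduce release. The mRNAs of most release proteins are made in the cell body. Their level in a synaptoneurosome fraction therefore mixes RNA from neurites with RNA from attached or co-purified cell parts.

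Libraries held between 19174649 and 25894733 estimated counts. Levels are given as CPM, the normalised read counts after TMM scaling of the libraries, in the order B, D, E, F for AM6545 and B, D, E for Vehicle. All 53 members passed the filter on low counts, with between 16 and 101815 counts per gene and library. On the first principal component of all tested genes Vehicle B stood apart at 43.8, and the other 6 libraries lay from -22.4 to 12.9. Vehicle B also had the largest share of mitochondrially encoded counts, 9.83% against 5.07% to 6.66% in the other 6 libraries.

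No release machinery gene passed the test of AM6545 against Vehicle after adjustment over all genes. With edgeR's quasi-likelihood test, 0 of 53 had a Benjamini-Hochberg adjusted p under 0.05, where the background was 0.00682% of 14654 tested genes. At an unadjusted p under 0.05, 4 members were higher in AM6545 (Napb, Stxbp5, Erc2 and Ppfia2) and 4 were lower (Syt7, Bsn, Unc13c and Sv2c). The background rates were 5.86% of all tested genes higher and 8.7% lower, so 4 of 53 (7.55%) in each direction lies near the background. Both groups' values lay apart, with no overlap, for 5 members that were higher in AM6545 (Snap25, Napb, Stxbp5, Erc2 and Ppfia2) and for 0 that were lower, against a background of 6.63% and 7.19%. The median log2 fold change was 0.011 over the members and 0.0079 over all tested genes, with 29 members positive and 24 negative. DESeq2 and limma-voom each called the same 2 genes at an adjusted p under 0.05, Syt7 and Napb, where their backgrounds were 2.44% and 2.69% (DESeq2 gave an adjusted p for 50 of the 53 members). Leaving out Vehicle E gave 5 calls with edgeR (Syt7, Bsn and Cplx2 lower, Napb and Nsf higher), against a background of 6.38%. The 4 higher and 4 lower members became 8 and 7 without Vehicle E, where the background rose to 12.8% and 12.9% of all tested genes. Without Vehicle B they were 2 and 1 (background 2.77% and 3.69%), and without Vehicle D 1 and 3 (background 5.25% and 7.99%). Without AM6545 B they were 2 and 2 (background 4.65% and 7.2%), and without AM6545 F 1 and 2 (background 4.75% and 7.66%).

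Levels spanned almost the whole range of the transcriptome, from a gene above 4.22% of tested genes to one above 99.8%. To compare genes, CPM was divided by the transcript length in kilobases, averaged over the 7 libraries. Snap25, the plasma membrane SNARE, was the highest at 1685 CPM per kilobase. It was followed by the vesicle protein gene Syp at 749, Vamp2 at 669, Rab3a at 617, Slc17a7 at 501 and Nsf at 431 CPM per kilobase. Syp and Vamp2 were neighbours whose libraries overlapped (701 to 817 against 552 to 736), as did Vamp2 and Rab3a (544 to 681). Snap25 overlapped no other member, with its lowest library at 1514 CPM per kilobase. The active zone scaffolds sat far lower, the highest of the 12 being Erc2 at 23.8 CPM per kilobase and the lowest Unc13c at 1.40. At the bottom of all 53 were Sv2c (0.927), Doc2b (0.801) and Slc17a8 (0.244 CPM per kilobase, 16 to 33 counts per library). The 6 most counted members, Snap25, Syp, Nsf, Vamp2, Slc17a7 and Syt11, made up 49.7% to 52.2% of all counts of the machinery.

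**Figure D1:**
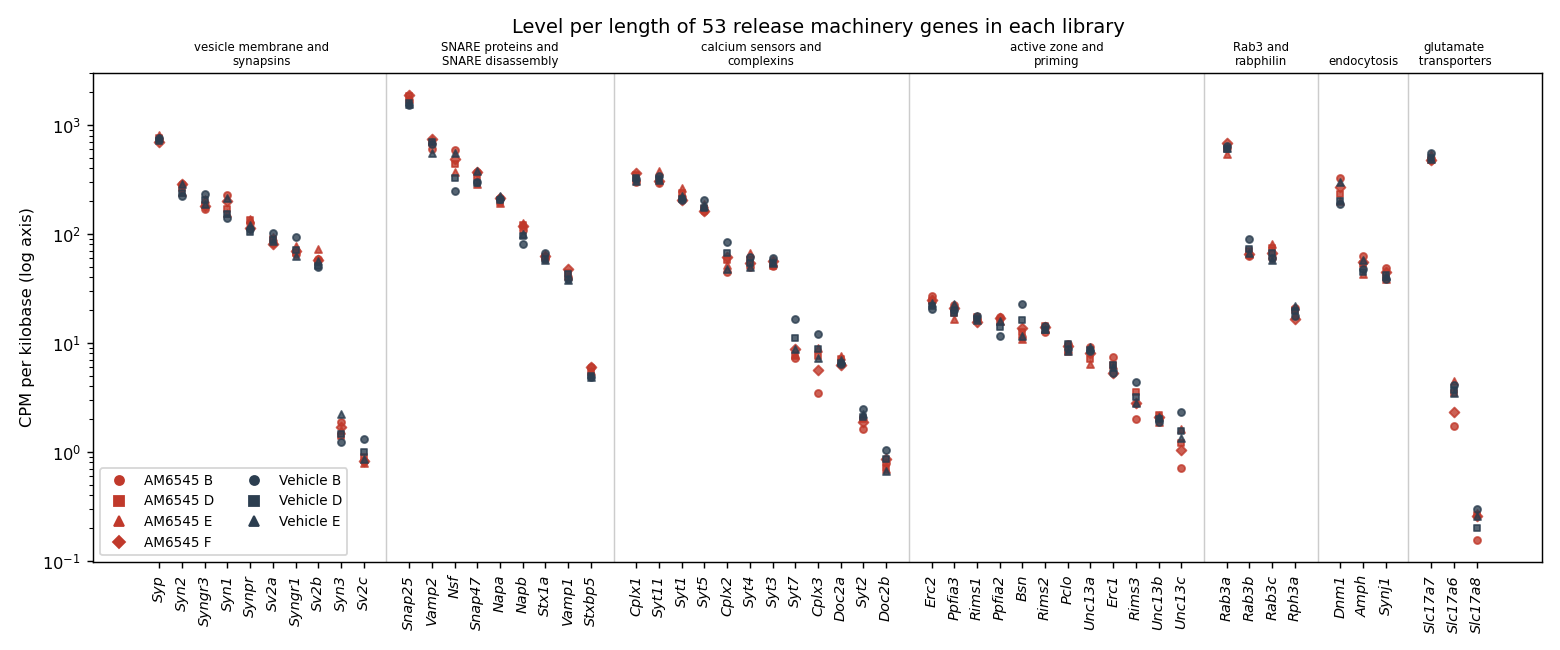
Level per length of the 53 genes in each library (CPM per kilobase, log axis), grouped by role, with 1 symbol per library (red for AM6545, dark for Vehicle). Snap25 is highest at 1685 and Slc17a8 lowest at 0.244 CPM per kilobase on average, and the widest scatter between libraries is in Cplx3, Unc13c, Slc17a6 and Nsf.

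The vesicle membrane group held the synapsins, which tie vesicles to each other and to actin, the tetraspanning proteins synaptophysin, synaptogyrin and synaptoporin, and the SV2 proteins. Of its 10 genes, 0 were higher and 1 lower at an unadjusted p under 0.05 (background 5.86% and 8.7%). The median log2 fold change was 0.015. Syp, which codes for synaptophysin, measured 1902, 1946, 2116 and 1815 CPM in AM6545 and 1983, 1850.3 and 1957 CPM in Vehicle. Its groups overlapped throughout, with AM6545 F lowest and AM6545 E highest (log2 fold change 0.011, SE 0.10, edgeR, adjusted p 0.967). Part of the Syp exons, 16.8%, lies opposite a predicted gene, and strand use in the counting is not stated. Sv2c, the least expressed SV2 paralogue, was at 7.53, 8.05, 7.10 and 7.52 CPM in AM6545 and 11.8, 8.99 and 7.85 CPM in Vehicle. Vehicle B was the highest library, and Vehicle E lay among the AM6545 values. The log2 fold change of Sv2c was -0.34 (SE 0.15, edgeR, unadjusted p 0.0410, adjusted p 0.323), -0.16 without Vehicle B and -0.46 without Vehicle E. Sv2b, a modulator of the calcium response of release, had 314, 295, 393 and 308 CPM in AM6545 and 269, 275 and 301 CPM in Vehicle, a log2 fold change of 0.22 (SE 0.11, edgeR, adjusted p 0.397). AM6545 E alone was far above the others, and AM6545 D lay inside the Vehicle range. Synpr, coding for synaptoporin, which is abundant in mossy fibre terminals, had 316, 336, 347 and 288 CPM and 282, 261 and 308 CPM (log2 fold change 0.18, SE 0.10, edgeR, adjusted p 0.427). The highest Vehicle library, E, exceeded AM6545 F. After each library's trend with GC content and length was removed, the value for Synpr was -0.02.

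Synapsin 1, coded by Syn1, is the phosphoprotein that holds the reserve pool of vesicles. Its mRNA was at 737, 549, 504 and 645 CPM in AM6545 and 451, 497 and 691 CPM in Vehicle. AM6545 B and Vehicle E were the highest libraries and Vehicle B the lowest, so the groups overlapped (log2 fold change 0.16, SE 0.16, edgeR, adjusted p 0.665, 0.042 without Vehicle B and 0.36 without Vehicle E). Syn2 also had its lowest value in Vehicle B, with 893, 825, 768 and 908 CPM and 704, 744 and 895 CPM, and Syn3 was lower throughout at 2.90 to 5.20 CPM. Both Syn1 transcripts in the table are coding and differ at a splice acceptor near the end of the reading frame, which changes the carboxyl end of the protein. The segment is shown because it separates the 2 proteins, which were counted at similar shares. It is 38 bases long (capitals) at chrX:20861572-20861609 on the minus strand of mm10, written 5′ to 3′ with 15 bases of coding sequence on each side, from the GENCODE M21 transcript.
Syn1-201 segment: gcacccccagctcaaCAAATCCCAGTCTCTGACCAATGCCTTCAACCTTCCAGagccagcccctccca
The transcript with the segment took 46.1, 47.3, 50.2 and 50.3% of Syn1 counts in AM6545 and 48.2, 44.8 and 46.5% in Vehicle. Both forms were therefore present at close to equal shares in every library, and the groups overlapped.

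Syngr1, coding for the tetraspanning vesicle protein synaptogyrin 1, had 221, 224, 259 and 231 CPM in AM6545 and 311, 239 and 212 CPM in Vehicle as a whole gene. Vehicle B was the highest and Vehicle E the lowest library (log2 fold change -0.12, SE 0.13, edgeR, adjusted p 0.673), and without Vehicle B the value was 0.055, of the other sign. One minor transcript, Syngr1-202, ends its reading frame in a segment of its own, and it had the smallest p of the members' 148 tested transcripts. The coding part of that segment is 90 bases long (capitals) at chr15:80113166-80113255 on the plus strand of mm10, shown after 15 bases that it shares with the other forms.
Syngr1-202 segment: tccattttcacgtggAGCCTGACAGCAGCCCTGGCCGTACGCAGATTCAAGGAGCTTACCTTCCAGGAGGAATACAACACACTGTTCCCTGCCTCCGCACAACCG
This transcript was at 13.1, 12.8, 12.4 and 12.3 CPM in AM6545 and 18.8, 16.0 and 17.0 CPM in Vehicle. Every Vehicle library lay above every AM6545 library. The log2 fold change was -0.45 (SE 0.10, edgeR on transcripts, unadjusted p 0.00287, adjusted p 0.544), and DESeq2 gave an adjusted p of 0.0150. Its share of Syngr1 counts was 5.92, 5.69, 4.74 and 5.36% in AM6545 and 6.04, 6.66 and 8.16% in Vehicle, which is a description of a transcript chosen by its p.

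The SNARE group covers the proteins that fuse membranes and those that take the spent complex apart. Of its 9 genes, 8 had a positive and 1 a negative log2 fold change (median 0.12), where 7529 of 14654 tested genes were positive. At an unadjusted p under 0.05, 2 were higher (background 5.86%), and 3 had groups that did not overlap (background 6.63%). Those 3, Snap25, Napb and Stxbp5, have a GC content under 50%, a class in which 68.1% of all tested genes were positive. With 9 genes these counts are not read as a result about the group. Napb, the brain form of the SNAP adaptor that brings NSF to the SNARE complex (ENSMUSG00000027438.15, chr2:148693985-148732467, minus strand), had the smallest p of all 53. Its values were 477, 529, 559.7 and 516 CPM in AM6545 and 357, 419.5 and 436 CPM in Vehicle. All 4 AM6545 libraries exceeded all 3 Vehicle libraries, of which Vehicle B was lowest. The means were 520.4 ± 34.1 CPM (SD, n = 4) and 404 ± 41.6 CPM (SD, n = 3). The log2 fold change was 0.36 (SE 0.10), with an unadjusted p of 0.00446 and an adjusted p of 0.212 by edgeR's quasi-likelihood test. With DESeq2 the adjusted p was 0.0421, with limma-voom 0.0435, and with edgeR without Vehicle E it was 0.0453. Without Vehicle B, its lowest library, edgeR gave a log2 fold change of 0.29 and an adjusted p of 0.672. After the GC and length correction the log2 fold change was 0.20 (unadjusted p 0.0258, adjusted p 0.728, edgeR). The paralogue Napa, expressed in most tissues, was at 502, 462, 449 and 506 CPM in AM6545 and 489, 485 and 521 CPM in Vehicle, with overlapping groups and a log2 fold change of -0.054.

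Stxbp5 codes for tomosyn, a syntaxin binding protein that competes with synaptobrevin and restrains priming (ENSMUSG00000019790.18, chr10:9755547-9901079, minus strand). It was measured at 43.9, 39.5, 40.3 and 43.8 CPM in AM6545 and 35.8, 36.00 and 35.4 CPM in Vehicle. The Vehicle libraries lay within 1 CPM of each other, and all AM6545 libraries were above them (log2 fold change 0.23, SE 0.093, edgeR, unadjusted p 0.0301, adjusted p 0.303). The value was 0.24 after the GC and length correction, 0.23 without Vehicle B and 0.22 without Vehicle E. Nsf, the ATPase itself, ranged from 930.1 CPM in Vehicle B to 2214 CPM in AM6545 B. Its values were 2214, 1653, 1385 and 1838 CPM in AM6545 and 930.1, 1226 and 2082 CPM in Vehicle. Vehicle E lay with the AM6545 libraries and the other Vehicle libraries below all of them. With all libraries the log2 fold change was 0.33 (SE 0.25, edgeR, adjusted p 0.554). Without Vehicle E it was 0.72 (adjusted p 0.0356), and without Vehicle B it was 0.11.

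Snap25 (ENSMUSG00000027273.14, chr2:136713453-136782428, plus strand) had 3549, 3844, 3582 and 3907 CPM in AM6545 and 3145, 3273 and 3209 CPM in Vehicle. The lowest AM6545 library, B, was above the highest Vehicle library, D, and the means were 3720.5 ± 181 CPM (SD, n = 4) and 3209 ± 63.9 CPM (SD, n = 3). The log2 fold change of 0.21 (SE 0.10) had an unadjusted p of 0.0597 and an adjusted p of 0.365 with edgeR, and was 0.075 after the GC and length correction. Snap25 is spliced with 1 of a pair of alternative exons that code for the stretch around the palmitoylated cysteines. The upstream exon is known to prevail early in development and the downstream one in the adult brain. Both are 118 bases long on the plus strand of mm10, at chr2:136769743-136769860 (upstream, Snap25-202) and chr2:136770057-136770174 (downstream, Snap25-201). They are printed from the GENCODE M21 transcripts because the 31 bases by which they differ (capitals) set the 2 proteins apart.
Snap25-201 exon: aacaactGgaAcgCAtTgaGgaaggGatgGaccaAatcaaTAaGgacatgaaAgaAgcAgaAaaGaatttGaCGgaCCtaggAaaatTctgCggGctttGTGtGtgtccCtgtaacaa
Snap25-202 exon: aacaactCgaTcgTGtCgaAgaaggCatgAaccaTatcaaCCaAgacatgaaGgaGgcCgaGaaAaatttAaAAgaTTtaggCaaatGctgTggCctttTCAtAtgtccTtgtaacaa
The downstream exon's transcript took 98.0% to 98.5% of the counts of both forms in AM6545 and 98.2% to 98.5% in Vehicle. The upstream exon's transcript was at 1.70, 1.67, 2.03 and 1.54% in AM6545 and 1.76, 1.71 and 1.53% in Vehicle, overlapping between groups. As levels, Snap25-201 measured 3495, 3794, 3535 and 3837 CPM and 3097, 3239.9 and 3119 CPM, and Snap25-202 60.5, 64.5, 73.4 and 60.2 CPM and 55.6, 56.3 and 48.3 CPM. Both transcripts were thus higher in every AM6545 library than in every Vehicle library. The log2 fold changes were 0.22 (SE 0.077) and 0.27 (SE 0.10), each with an adjusted p above 0.05 in edgeR (0.561 and 0.569). DESeq2 gave Snap25-201 an adjusted p of 0.00164.

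Vamp2, the vesicle SNARE of fast release, was at 1320.2, 1498, 1614 and 1616 CPM in AM6545 and 1469, 1544 and 1212 CPM in Vehicle. AM6545 B and Vehicle E were the lowest, the reverse of their order in Nsf (log2 fold change 0.10, SE 0.12, edgeR, adjusted p 0.704). Its paralogue Vamp1 had 113, 123, 116 and 133 CPM and 108, 120.4 and 105 CPM, with overlapping groups. Stx1a, the plasma membrane syntaxin, stayed within 125 to 143 CPM in all libraries, with 127, 132, 137 and 136 CPM in AM6545 and 143, 127 and 125 CPM in Vehicle. Its log2 fold change was 0.015 (SE 0.092, edgeR, adjusted p 0.950). Snap47, a SNAP-25 relative found on intracellular membranes, had 700.2, 647, 544 and 700.2 CPM and 564, 559 and 716 CPM, with Vehicle E and AM6545 B again among the highest.

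Calcium sensors and complexins numbered 12, of which 0 were higher and 1 lower at an unadjusted p under 0.05 (background 5.86% and 8.7%). Their median log2 fold change was -0.11. Syt7 codes for a high-affinity synaptotagmin known for asynchronous release and facilitation (ENSMUSG00000024743.17, chr19:10389090-10453180, plus strand). It measured 43.7, 46.4, 46.3 and 52.5 CPM in AM6545 and 99.4, 67.0 and 52.2 CPM in Vehicle. Vehicle B was near 2 times the AM6545 values, Vehicle D lay between, and Vehicle E was just under AM6545 F, so the groups overlapped. The means were 47.3 ± 3.71 CPM (SD, n = 4) and 72.9 ± 24.2 CPM (SD, n = 3). edgeR gave a log2 fold change of -0.63 (SE 0.18), the most negative of the 53, with an unadjusted p of 0.00465 and an adjusted p of 0.212. DESeq2 gave an adjusted p of 0.0396 and limma-voom 0.0392. The log2 fold change was -0.82 without Vehicle E (adjusted p 0.0193), -0.34 without Vehicle B (adjusted p 0.691) and -0.48 after the GC and length correction (adjusted p 0.728), all with edgeR. A predicted gene on the other strand overlaps 5.13% of the Syt7 exons.

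Syt1, the calcium sensor of fast synchronous release, had 948, 1029, 1161 and 904 CPM in AM6545 and 905, 920.3 and 978 CPM in Vehicle. AM6545 F was the lowest and AM6545 E the highest library, and the groups overlapped (log2 fold change 0.11, SE 0.11, edgeR, adjusted p 0.641). Syt2, the fast sensor of many inhibitory terminals, was at 9.95, 12.4, 13.1 and 11.6 CPM and 15.1, 12.8 and 13.8 CPM. Only AM6545 E exceeded the lowest Vehicle library, D (log2 fold change -0.24, SE 0.13, edgeR, adjusted p 0.393). Among the remaining synaptotagmins, Syt11, which lacks calcium binding, was the highest at 322 CPM per kilobase. Syt5, Syt4 and Syt3 were at 177, 56.0 and 54.5 CPM per kilobase, and their log2 fold changes lay between -0.13 and 0.038. Doc2a and Doc2b, soluble high-affinity sensors, were at 15.1 to 18.2 CPM and 2.92 to 4.51 CPM. Their groups overlapped, and 39.4% of the Doc2a exons lie opposite another gene.

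Complexins clamp and then promote SNARE-driven fusion. Cplx1, the highest of the calcium sensor group per length (329 CPM per kilobase), had 657, 768, 727 and 796 CPM in AM6545 and 702, 720.1 and 670.2 CPM in Vehicle, within overlapping groups (log2 fold change 0.079, SE 0.10, edgeR, adjusted p 0.731). Cplx2, the complexin of excitatory forebrain neurons, was at 223, 283, 255 and 301 CPM in AM6545 and 416, 329 and 233 CPM in Vehicle. Vehicle B was the highest library by far, and Vehicle E lay between AM6545 B and AM6545 E. The log2 fold change was -0.30 (SE 0.17, edgeR, adjusted p 0.442), -0.49 without Vehicle E (adjusted p 0.0437) and -0.082 without Vehicle B. Cplx3, a complexin of few forebrain neurons, varied most of all members between libraries, with 8.52, 18.6, 21.6 and 13.7 CPM in AM6545 and 29.1, 21.3 and 17.8 CPM in Vehicle. AM6545 B was lowest and Vehicle B highest, 3.42 times apart, and AM6545 E exceeded both Vehicle D and Vehicle E (log2 fold change -0.55, SE 0.28, edgeR, adjusted p 0.401). Without Vehicle B the log2 fold change of Cplx3 was -0.32.

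The active zone group held the scaffolds and priming factors that place vesicles beside calcium channels. Of 12 genes, 2 were higher and 2 lower at an unadjusted p under 0.05 (background 5.86% and 8.7%). The median log2 fold change was -0.0023. Bsn codes for Bassoon, one of the giant cytomatrix scaffolds (ENSMUSG00000032589.15, chr9:108096022-108190384, minus strand). Its values were 91.6, 102, 87.4 and 111 CPM in AM6545 and 183, 131 and 93.7 CPM in Vehicle. Vehicle B and Vehicle D exceeded every AM6545 library, and Vehicle E lay among them. The log2 fold change was -0.47 (SE 0.19, edgeR, unadjusted p 0.0275, adjusted p 0.295), -0.68 without Vehicle E (adjusted p 0.0239), -0.20 without Vehicle B and -0.20 after the GC and length correction. Pclo, coding for the related scaffold Piccolo, was level at 156, 132, 138 and 149.5 CPM in AM6545 and 139, 154 and 134 CPM in Vehicle (log2 fold change 0.016).

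Erc2, which codes for the scaffold CAST and was the highest of the group per length (ENSMUSG00000040640.12, chr14:27622428-28478537, plus strand), had 97.8, 87.9, 93.00 and 90.8 CPM in AM6545 and 74.6, 78.7 and 84.0 CPM in Vehicle. All AM6545 libraries were above all Vehicle libraries (log2 fold change 0.22, SE 0.092, edgeR, unadjusted p 0.0315, adjusted p 0.307), and the GC and length correction left 0.046. Ppfia2, coding for liprin-alpha-2, an adaptor that recruits RIM and CASK (ENSMUSG00000053825.16, chr10:106470339-106935952, plus strand), was at 88.2, 82.1, 82.1 and 87.3 CPM and 58.8, 72.3 and 81.7 CPM. The groups lay apart by less than 1 CPM, since Vehicle E came just under AM6545 E. Its log2 fold change was 0.26 (SE 0.11, edgeR, unadjusted p 0.0420, adjusted p 0.325), 0.15 without Vehicle B and 0.37 without Vehicle E. Genes on the other strand overlap 24.5% of the Ppfia2 exons, so its counts are uncertain.

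Munc13 proteins open syntaxin and so prime vesicles. Unc13c, the isoform best known from cerebellar granule cells (ENSMUSG00000062151.14, chr9:73479422-73968966, minus strand), had 6.23, 10.6, 14.2 and 9.09 CPM in AM6545 and 20.6, 13.6 and 11.7 CPM in Vehicle. AM6545 B was lowest and Vehicle B highest, while AM6545 E exceeded Vehicle D and Vehicle E. The log2 fold change was -0.62 (SE 0.26, edgeR, unadjusted p 0.0398, adjusted p 0.320), -0.34 without Vehicle B and -0.54 after the GC and length correction (unadjusted p 0.0438). Unc13a, the main priming isoform of forebrain synapses, was at 85.4, 67.1, 60.3 and 75.2 CPM and 79.8, 81.0 and 85.8 CPM. AM6545 B fell inside the narrow Vehicle range and the other AM6545 libraries below it (log2 fold change -0.19, SE 0.12, edgeR, adjusted p 0.467). After the GC and length correction the value for Unc13a was 0.056, of the other sign. Rims1, coding for RIM1, which links Rab3 to Munc13 and calcium channels, stayed at 69.6, 73.0, 75.3 and 66.4 CPM in AM6545 and 75.3, 69.6 and 69.2 CPM in Vehicle (log2 fold change -0.0064, SE 0.093, edgeR, adjusted p 0.980). Rims2 was as steady, 1.12 times between its extreme libraries, whereas the short isoform gene Rims3 spanned 2.18 times, from AM6545 B to Vehicle B. The remaining members Unc13b, Erc1 and Ppfia3 had log2 fold changes of 0.038, 0.12 and -0.066 and overlapping groups.

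Among the Rab3 proteins, small GTPases that ride on vesicles, and their effector rabphilin, 0 of 4 genes passed an unadjusted p of 0.05. The background was 5.86% higher and 8.7% lower. Rab3a, the main neuronal Rab3, was at 851, 855, 756 and 945 CPM in AM6545 and 896, 834 and 861 CPM in Vehicle, with both extremes in AM6545 (log2 fold change -0.02, SE 0.10, edgeR, adjusted p 0.942). Rab3b had 72.0, 80.3, 74.8 and 75.1 CPM and 102, 82.8 and 77.0 CPM, and only AM6545 D exceeded the lowest Vehicle library (log2 fold change -0.21, SE 0.11, edgeR, adjusted p 0.397). Vehicle B was its highest library, and the value was -0.078 without Vehicle B and -0.29 without Vehicle E. Rab3c had 181, 224, 245 and 202 CPM and 183, 203 and 174 CPM, with overlapping groups, and its log2 fold change of 0.19 (SE 0.12) became -0.00033 after the GC and length correction. These GTPase genes showed no common direction. Rph3a, coding for rabphilin, was at 86.5, 82.0, 74.6 and 67.4 CPM and 72.6, 80.6 and 90.4 CPM (log2 fold change -0.065).

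Endocytic genes numbered 3, all with positive log2 fold changes smaller than their standard errors. Dnm1, which codes for the GTPase that cuts vesicles from the membrane, measured 955, 689, 591 and 798 CPM in AM6545 and 558, 584 and 886 CPM in Vehicle. AM6545 B and Vehicle E were highest and Vehicle B lowest, the order seen in Nsf and Syn1 (log2 fold change 0.17, SE 0.19, edgeR, adjusted p 0.698, 0.051 without Vehicle B and 0.41 without Vehicle E). Amph, coding for the dynamin-binding amphiphysin, had 199.9, 168, 135 and 176 CPM and 152, 143 and 182 CPM, and Synj1, coding for the uncoating phosphatase synaptojanin, 206, 165, 163 and 188 CPM and 164, 178 and 174 CPM. Both had overlapping groups and log2 fold changes of 0.093 and 0.073. Dynamin 1 carries 1 of a pair of mutually exclusive exons in its stalk-forming middle part. They are shown because the table splits Dnm1 counts between them at shares far from all or none. Both are 139 bases long on the minus strand of mm10, at chr2:32333066-32333204 (Dnm1-214) and chr2:32334682-32334820 (Dnm1-205), and the 39 differing bases are in capitals (GENCODE M21 transcripts).
Dnm1-214 exon: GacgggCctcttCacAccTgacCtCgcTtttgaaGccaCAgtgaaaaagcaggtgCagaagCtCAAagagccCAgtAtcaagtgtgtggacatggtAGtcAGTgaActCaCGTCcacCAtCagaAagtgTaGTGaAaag
Dnm1-205 exon: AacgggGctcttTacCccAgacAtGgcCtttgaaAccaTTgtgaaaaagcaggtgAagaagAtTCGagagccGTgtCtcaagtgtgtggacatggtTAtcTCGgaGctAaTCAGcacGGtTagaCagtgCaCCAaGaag
Of the Dnm1 counts in transcripts with either exon, the first took 62.7, 63.5, 63.3 and 63.00% in AM6545 and 57.9, 62.4 and 64.0% in Vehicle. Vehicle B was lowest, and the other 6 libraries lay within 62.4% to 64.0%.

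**Figure D2:**
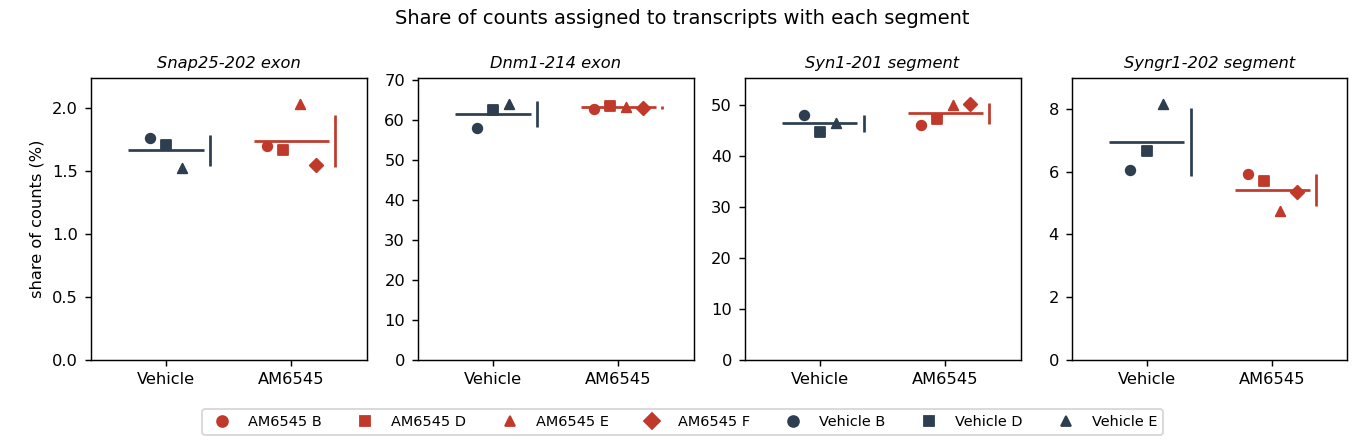
Share of counts assigned to transcripts that carry the upstream Snap25 exon, the Dnm1-214 exon, the Syn1-201 segment and the Syngr1-202 segment (percent of the gene's counts in the forms compared, axes from 0). Points are libraries, horizontal lines group means and vertical lines ± 1 SD; only the Syngr1-202 shares lie apart, 4.74% to 5.92% in AM6545 and 6.04% to 8.16% in Vehicle.

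The vesicular glutamate transporters fill vesicles with glutamate. Slc17a7, coding for VGLUT1 of cortical and hippocampal excitatory neurons, had 1382, 1389, 1588 and 1378 CPM in AM6545 and 1612, 1443 and 1405 CPM in Vehicle, and was 501 CPM per kilobase on average. AM6545 E lay inside the Vehicle range and the other AM6545 libraries just below it (log2 fold change -0.052, SE 0.11, edgeR, adjusted p 0.838). Slc17a6, coding for VGLUT2 of mostly subcortical inputs, was at 7.05, 14.2, 18.4 and 9.59 CPM and 16.9, 15.4 and 14.3 CPM. AM6545 B, D and F were below all Vehicle libraries, D by less than 1 CPM, and AM6545 E was above them (log2 fold change -0.34, SE 0.27, edgeR, adjusted p 0.561). Slc17a8, coding for VGLUT3 of a minority of interneurons and serotonergic axons, measured 0.692, 1.18, 1.22 and 1.15 CPM and 1.33, 0.887 and 1.14 CPM. The groups overlapped (log2 fold change -0.07, SE 0.29).

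**Figure D3:**
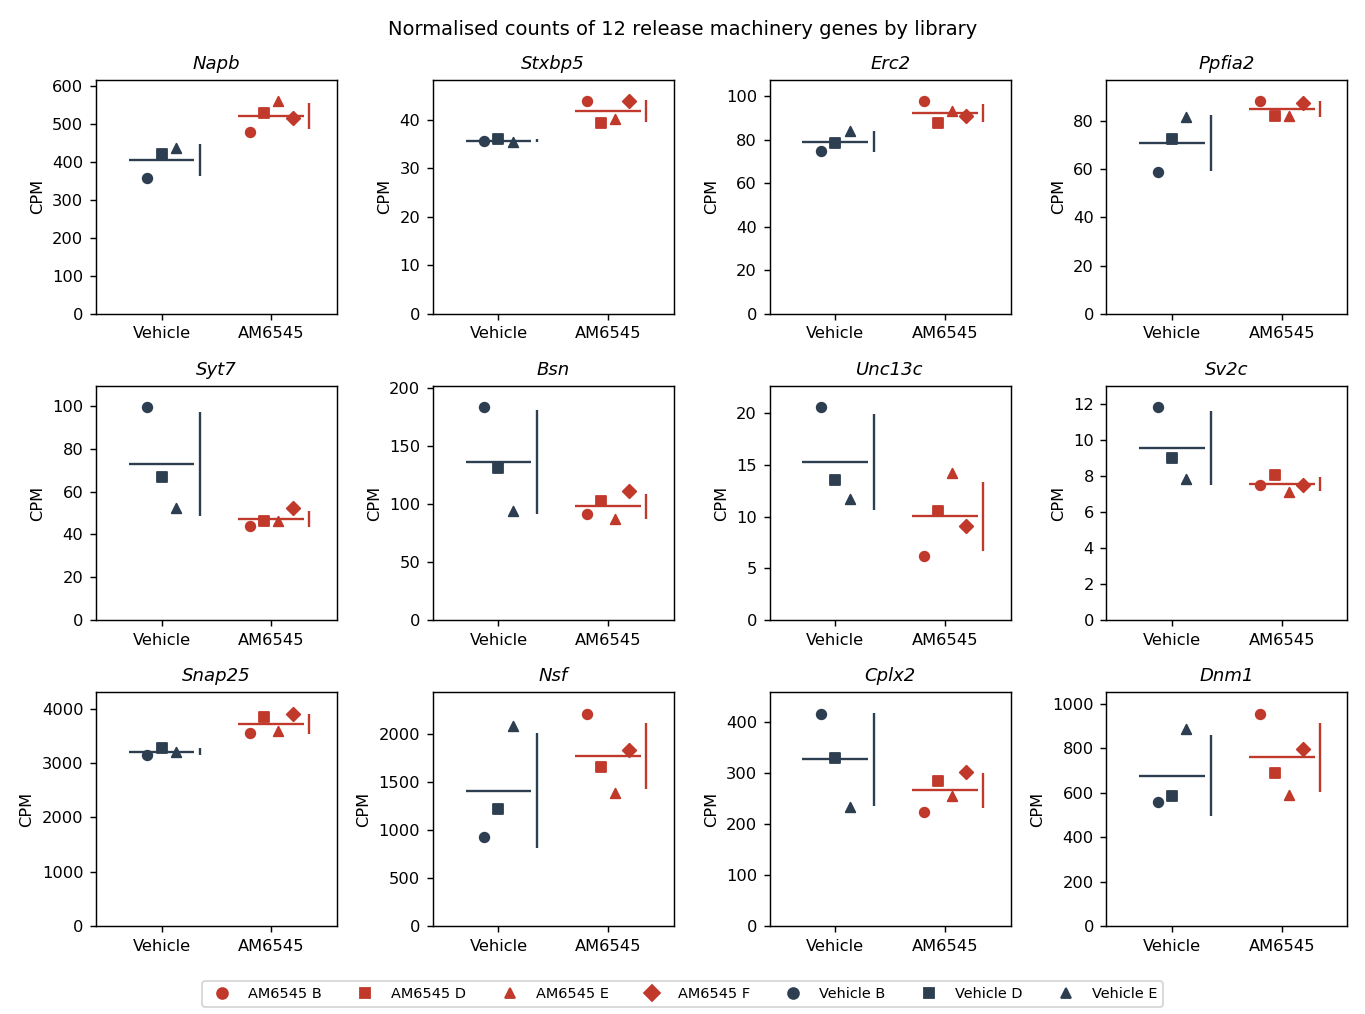
Normalised counts (CPM, axes from 0) of 12 members in each library, with the group mean as a horizontal line and ± 1 SD as a vertical line. Napb, Stxbp5, Erc2, Ppfia2 and Snap25 lie apart between groups, while in Syt7, Bsn, Unc13c, Sv2c and Cplx2 Vehicle B is the highest library and Vehicle E lies near or among the AM6545 libraries.

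**Figure D4:**
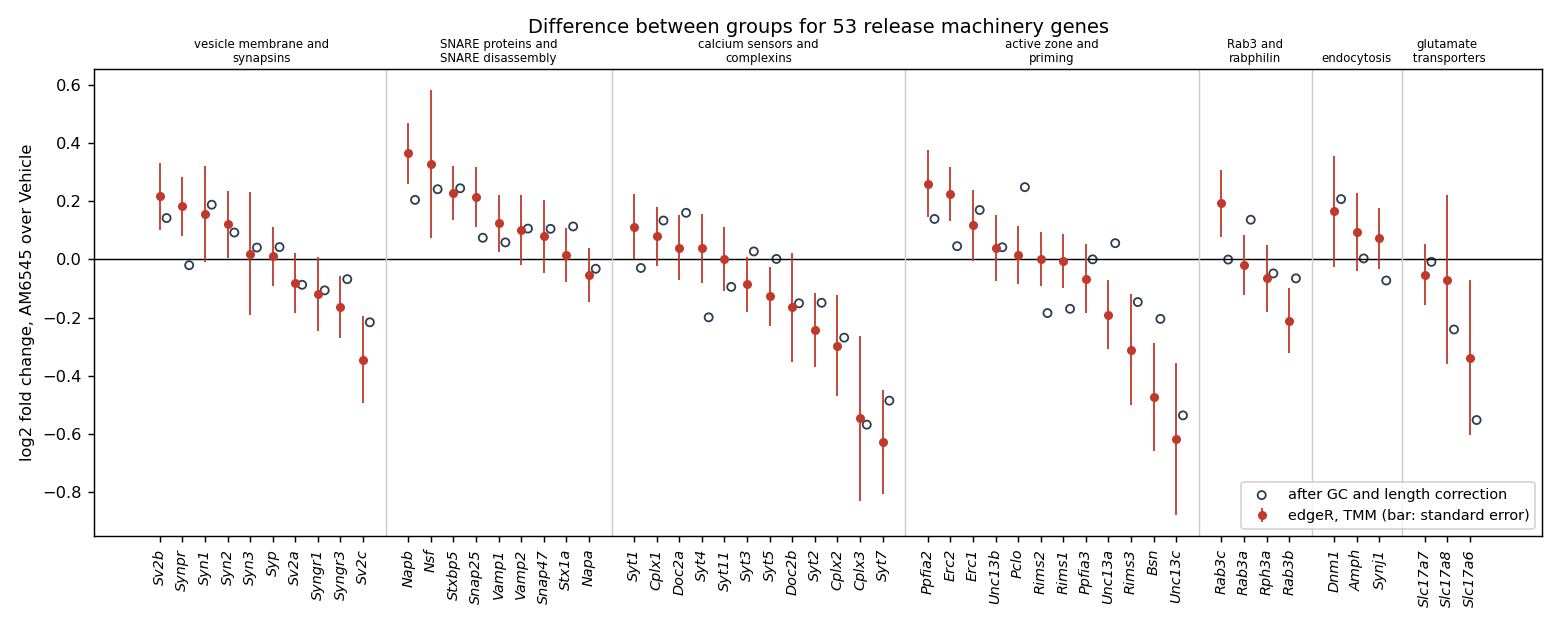
Log2 fold change of AM6545 over Vehicle for each of the 53 genes by role (filled points, bars are ± 1 SE from edgeR) and after removal of each library's trend with GC content and length (open points). Values run from -0.63 for Syt7 to 0.36 for Napb, and no gene passed an adjusted p of 0.05.

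The direction of the members varied with the base composition of their mRNAs, as it did in the whole table. Of 20 members with a GC content under 50%, 15 (75.0%) had a positive log2 fold change, and 68.1% of all tested genes did in that class. Of 33 members with 50% or more, 14 (42.4%) were positive, against 36.5% of all genes. As a description over genes, the rank correlation (Spearman's rho) between GC content and the log2 fold change was -0.34 over the 53 members and -0.42 over 14633 genes. All 5 members whose AM6545 values lay above Vehicle are in the class under 50% (Snap25 43.7%, Napb 44.2%, Stxbp5 44.9%, Erc2 45.4% and Ppfia2 43.1% GC). The share of that class among all genes that lay apart and higher was not computed. The GC content of these 5 is therefore not read as particular to the members. Among the lower ones, Syt7 and Bsn have 55.4% and 56.9% GC, and Unc13c and Sv2c 45.4% and 47.8%. With the trends of each library removed, 9 of 20 and 18 of 33 members were positive. In that fit 0 members passed an adjusted p of 0.05 (background 0.0%). At an unadjusted p under 0.05, 2 were higher, Stxbp5 and Napb (background 2.33%), and 2 lower, Syt7 and Unc13c (background 4.41%). The part of base composition in the differences between groups was not tested beyond this correction.

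**Figure D5:**
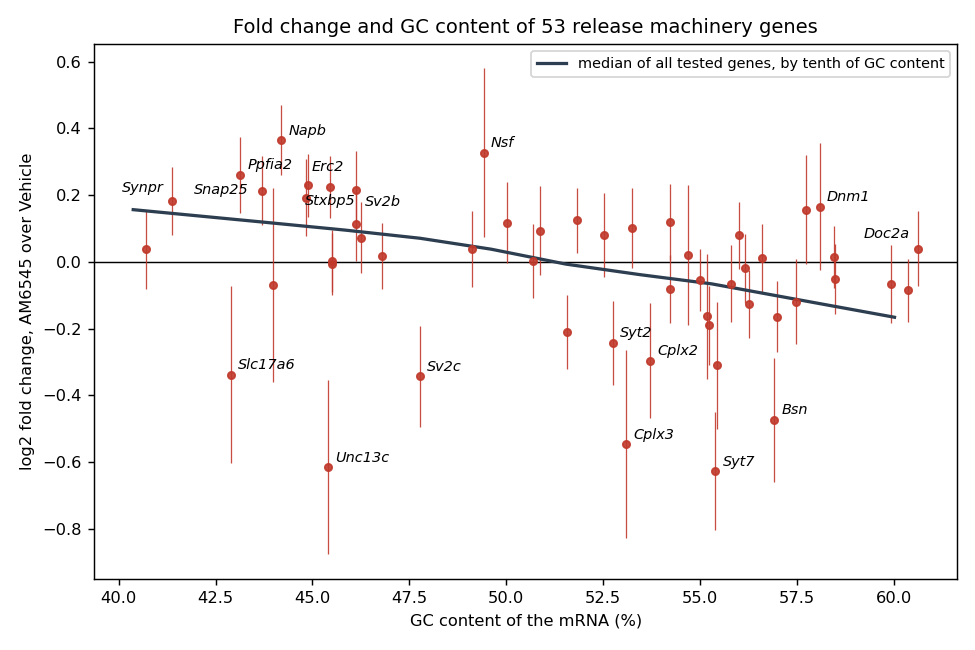
Log2 fold change of AM6545 over Vehicle (± 1 SE, edgeR) against the GC content of the mRNA in percent for the 53 members (points), with the median of all tested genes in each of 10 classes of GC content (line). The line falls from above to below 0 with rising GC content. Napb, Nsf, Dnm1, Syn1 and Ppfia2 are among the members above it, and Syt7, Bsn, Cplx3, Unc13c, Sv2c and Slc17a6 among those well below it.

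Ratios between paralogues were compared for 10 pairs by exact permutation (two-sided, 35 arrangements of the libraries), for which 0.0286 is the smallest possible p. None passed after Benjamini-Hochberg adjustment over the pairs (smallest adjusted p 0.238). The log2 ratio of Syt1 to Syt2 was 6.57, 6.38, 6.47 and 6.28 in AM6545 and 5.91, 6.17 and 6.15 in Vehicle. Its groups lay apart (difference 0.35, exact permutation p 0.0286, adjusted p 0.238), but overlapped after the GC and length correction (difference 0.12, exact permutation p 0.114). For the 2 SNAP adaptors, the log2 ratio of Napa to Napb was 0.0738, -0.194, -0.318 and -0.0267 in AM6545 and 0.454, 0.209 and 0.256 in Vehicle. All AM6545 libraries were below all Vehicle libraries (difference -0.42, exact permutation p 0.0571, adjusted p 0.238), also after the correction (difference -0.24). Bsn to Pclo differed by -0.44 and Cplx1 to Cplx2 by 0.34 on the log2 scale, with overlapping groups (exact permutation p 0.143 for each). The other 6 pairs differed by -0.29 (Sv2a to Sv2b) to 0.37 (Slc17a7 to Slc17a6), and their groups overlapped. After the GC and length correction the difference of Slc17a7 to Slc17a6 was 0.61, with all AM6545 libraries above all Vehicle libraries (exact permutation p 0.0857, adjusted p 0.286). The correction turned the sign for Unc13a to Unc13b (-0.24 to 0.016), Rab3a to Rab3c (-0.21 to 0.14) and Vamp1 to Vamp2 (0.019 to -0.051).

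Among 322 listed transcripts of the members, 269 had a count and 148 from all 53 genes passed the filter. By edgeR 0 of 148 had an adjusted p under 0.05 (background 0.0177%), while 9 were higher (background 3.89%) and 7 lower (background 4.5%) at an unadjusted p under 0.05. DESeq2 called 4 of 148 (background 1.27%), which were Syngr1-202, Rph3a-204, Napb-201 and Snap25-201. The counts of 9 higher and 7 lower became 4 and 5 of 143 without AM6545 D (background 2.39% and 3.2%), and 11 and 17 of 154 without Vehicle E (background 6.81% and 7.01%). Rph3a-204, a minor coding form of rabphilin, was at 3.03, 4.64, 7.49 and 4.14 CPM in AM6545 and 32.0, 15.1 and 9.67 CPM in Vehicle. Every AM6545 library was below every Vehicle library, and Vehicle B was far above the rest (log2 fold change -1.97, SE 0.47, edgeR, adjusted p 0.559). Its share of Rph3a counts was 3.48, 5.61, 9.96 and 6.17% in AM6545 and 43.9, 18.6 and 10.8% in Vehicle. AM6545 E and Vehicle E came close to each other. Ppfia3-208, a retained-intron transcript, had 4.94, 5.52, 3.08 and 5.17 CPM and 20.5, 9.66 and 6.68 CPM, again with Vehicle B highest and the groups apart (adjusted p 0.559, edgeR). The gene totals of Rph3a and Ppfia3 overlapped between groups. Lower at an unadjusted p were further Syt7-202 and Bsn-201, which carried 95.6% and 14.7% of their genes' counts in AM6545.

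Higher transcripts with the smallest p were Napb-201, Erc2-205, Erc1-207, Stxbp5-209 and Rims2-202. Napb-201 held 99.3% of Napb counts in AM6545 and so followed the gene (log2 fold change 0.38, SE 0.10, edgeR, adjusted p 0.559). Stxbp5-209 was at 11.2, 8.01, 10.3 and 6.93 CPM in AM6545 and 3.55, 5.08 and 6.36 CPM in Vehicle, with the groups apart (log2 fold change 0.87, SE 0.27, edgeR, adjusted p 0.559). Erc2-205 and Erc1-207 had overlapping groups, AM6545 F lying with Vehicle in both. Their values were 11.9, 11.0, 11.1 and 7.27 CPM against 5.09, 5.73 and 7.38 CPM and 9.19, 9.81, 10.1 and 3.87 CPM against 3.88, 1.34 and 2.89 CPM. Rims2-202 was near the detection limit, listed at 0 in Vehicle B and Vehicle E and at 1.69 CPM in AM6545 B. For the make-up of a gene by transcript, 38 members could be tested with edgeR's diffSpliceDGE, and 0 passed an adjusted p of 0.05 (background 0.713%). At an unadjusted p under 0.05 there were 3, Rims2, Rph3a and Syt3 (background 3.94%). Without Vehicle E the test called 2 others of 38, Erc1 and Dnm1, at an adjusted p under 0.05 (background 1.78%). Among genes left unchanged in simulated data this test gave small p-values more often than its nominal rate. Its calls are given with that limit. A test with each transcript's own spread, added after the data were seen, called 0 of 38 at an adjusted p under 0.05 (background 0.588%).

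Some libraries held the extreme value of a member more often than others. Vehicle B was the highest or the lowest of the 7 libraries for 30 of 53 members (highest for 19, lowest for 11), and AM6545 B for 25 (highest for 10, lowest for 15). Vehicle D was an extreme for 1 member only. These counts were not made over all tested genes, so they are not read as particular to the members. Vehicle B also stood apart on the first principal component of all tested genes, at 43.8. Vehicle B was the highest for Syt7, Bsn, Cplx2, Cplx3, Unc13c, Sv2c and Rims3, and the lowest for Nsf, Syn1, Dnm1, Napb and Ppfia2. In markers of other cells, microglial mRNAs summed to 733 to 775 CPM in AM6545 and 749.8 to 1007 CPM in Vehicle. At an unadjusted p under 0.05 (edgeR), 5 of 8 microglial markers were lower, against 8.7% of all tested genes. Oligodendrocyte markers summed to 17215 to 20330 CPM and 16888 to 23136 CPM, and astrocyte markers to 4044 to 5063 CPM and 4223 to 5478 CPM. Choroid plexus markers ran from 1061 to 5203 CPM in AM6545 and 3307 to 5109 CPM in Vehicle, and endothelial and mural markers from 85.5 to 128 CPM and 89.7 to 123 CPM. No marker of these lists was at 0 over all libraries, and RNA of cells other than neurons was counted in every library. Excitatory neuron markers summed to 2715 to 3361 CPM in AM6545 and 3366 to 3873 CPM in Vehicle, and inhibitory ones to 965 to 1084 CPM and 1078 to 1267 CPM. At the same unadjusted threshold 2 of 8 excitatory, 3 of 10 inhibitory, 1 of 8 astrocyte and 1 of 8 oligodendrocyte markers were lower. Mitochondrially encoded mRNAs were negative in 13 of 13 (median log2 fold change -0.44), 10 of them at an unadjusted p under 0.05. With the GC and length correction the median log2 fold change of microglial markers went from -0.33 to -0.13. Inhibitory markers went from -0.21 to 0.0062, and excitatory ones from -0.13 to -0.038. Astrocyte markers went from 0.027 to -0.058, oligodendrocyte ones from -0.076 to -0.066 and choroid plexus ones from -0.19 to -0.26. Endothelial and mural markers stayed at 0.16, and mitochondrially encoded mRNAs went from -0.44 to -0.35. The part of any of these in the members' values was not tested. Fewer cells of a type, less RNA per cell and less carry-over cannot be told apart.

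As a share of all counts the machinery took 2.21, 2.25, 2.30 and 2.31% in AM6545 and 2.004, 2.14 and 2.11% in Vehicle. The lowest AM6545 library was above the highest Vehicle library. Mitochondrially encoded counts, which Vehicle B has most of, enter that total. Relative to nuclear-encoded counts the shares were 2.33, 2.38, 2.46 and 2.44% and 2.22, 2.28 and 2.25%, still apart. Taking out Snap25 left 1.96, 1.97, 2.07 and 2.02% and 1.89, 1.92 and 1.92%, and taking out Nsf as well left 1.73, 1.79, 1.91 and 1.83% and 1.79, 1.79 and 1.71%, which overlapped. No test was made of these sums, whose parts were chosen after the values were seen.

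Other genes of the vesicle cycle, in a list of 53 that holds Munc18, further synaptotagmins, CAPS, clathrin adaptors and chaperones, were read beside the members. Of the 52 tested, 0 had an adjusted p under 0.05, and the median log2 fold change was 0.078. At an unadjusted p under 0.05, 6 were higher and 5 lower, against 5.86% and 8.7% of all tested genes. The smallest p-values were those of Lin7c, a scaffold of the liprin and CASK complex (log2 fold change 0.38, SE 0.097), Sh3gl2, coding for endophilin A1 of vesicle recovery (0.31, SE 0.11), and Stxbp5l, coding for a second tomosyn (0.50, SE 0.18). All 3 were higher and were picked by their p, with adjusted p of 0.199, 0.261 and 0.261 (edgeR). Of 16 subunits of the proton pump that powers vesicle filling, 0 were higher and 2 lower at an unadjusted p under 0.05 (same backgrounds). The 2 were Atp6v1f (log2 fold change -0.38, SE 0.12) and Atp6v0b (-0.37, SE 0.12), and the median was -0.0074.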

How the data were processed

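Per the submitters' processing notes the reads were processed with Salmon 1.5.2 and mm10. The authors deposited estimated counts per gene (22248) and per transcript (102392) for 7 libraries, not normalised; annotation release and strand use are not given in the sources used here. Per the labels' protocols, total RNA (RNeasy) went into SMARTer Ultra Low Input libraries. Names, length, GC content, coordinates and sequences come from GENCODE M21, in which 22148 gene and 101527 transcript identifiers were found. Exons of 20 members overlap those of another gene, 10 of them by over 5%, and at most 6.20% of a member's leading transcript matched a gene elsewhere at 95% identity (BLAST 2.17.0).

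Estimated counts were rounded. AM6545 was compared with Vehicle in all 7 libraries by edgeR 4.0.16 (R 4.3.3; TMM, filterByExpr, robust quasi-likelihood fit, no covariates), with Benjamini-Hochberg adjustment over all 14654 genes or 33962 transcripts tested. SE is the absolute log2 fold change over the square root of F. Groups are called apart where their CPM values do not overlap. The GC and length correction fitted each library's trend by lowess (span 0.3) and entered it as an offset. Paralogue ratios used log2 counts (after the GC and length correction, log2 CPM with 0.5 prior counts) and exact permutation. Form shares carry no test. Alternatives were other scalings, DESeq2 1.42.0, limma-voom 3.58.1, other filters, a fit without robust estimation, a replicate block, 1 surrogate variable (sva 3.50.0), removal of mitochondrial genes, transcripts summed per gene and leaving out each library. The code was tested on simulated data.

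The rule named all 53 members and gave in full the highest per length and the 3 smallest p in each role, fixed key genes, 5 transcripts per direction and 3 genes per other list. The values of Nsf, Snap47, Syn2, Pclo, Napa and Ppfia2, and the Syngr1, Snap25, Syn1 and Dnm1 segments, were chosen after their values were seen. Members and lists were chosen with earlier results of these data known. The nuclear transcript list had 1 of 5 genes in the table, Snhg11 (log2 fold change -0.0015).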

Additional observations from a re-analysis of the deposited data

Results flagged for a closer look

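The highest or lowest AM6545 library stood far from the other 3 for 2 of the 63 sets of 4 values examined (members and paralogue ratios), where chance alone gives about 1 in 20. Slc17a7 was at 1588 CPM in AM6545 E, with the other AM6545 libraries between 1378 and 1389 CPM. Slc17a8 was at 0.692 CPM in AM6545 B, with the others between 1.15 and 1.22 CPM. The Vehicle group, with 3 libraries, was not examined in this way.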

How the results depend on the processing

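Counts of adjusted calls among the 53 members were 0 in every gene fit except DESeq2 (2), limma-voom (2) and without Vehicle E (5), so leaving out each library gave 0 to 5. The 4 members higher at an unadjusted p became 7 with limma-voom, 2 after the GC and length correction, and 1 to 8 on leaving out each library. The 4 lower members became 2 with scaling by total counts, 2 with 1 surrogate variable, 2 after the GC and length correction, and 1 to 7 on leaving out each library. Adjusted calls among 148 transcripts were 4 with DESeq2 and 0 otherwise. The 9 higher transcripts became 14 without a low-count filter and 4 to 11 on leaving out each library, and the 7 lower ones 5 to 17. Transcript usage gave 0 to 2 calls on leaving out each library, and 1 paralogue ratio passed an unadjusted p. With the replicate block, 0 members passed an adjusted p, 1 was higher and 2 lower at an unadjusted p, and with the GC and length correction and the replicate block 0 were higher and 1 lower; the block changed no other call. Same-letter libraries did not deviate together (r -0.22, -0.11 and -0.14 for B, D and E), while pairs of different letters had r from -0.015 to 0.19. With 4 and 3 libraries these values cannot decide whether the letters pair samples, and the main fit used no pairing. The share over all genes moved too, from 5.86% higher and 8.7% lower in the main fit to 12.8% and 12.9% without Vehicle E. It was not computed for unadjusted counts with limma-voom, total counts, 1 surrogate variable, no low-count filter or the replicate block. Those counts are therefore not read as results about the members. The cause of these shifts was not tested, and leaving out a library also leaves fewer samples. Of the 53 members, 25 kept one sign in all 21 other gene fits (Slc17a8 was tested in 20). The 8 with an unadjusted p under 0.05 were among them. They were picked by p from the same libraries that these fits reuse, so their constant sign is no separate support. The share over all genes was not computed. The number of libraries, 4 and 3, limits the precision, and for Slc17a8 (16 to 33 counts) the depth does too.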
